A study of Gallus gallus with 4 samples.

Results

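Actin-related proteins (Arps) share the fold of actin and serve as subunits of larger assemblies, some in the cytoplasm and some in the nucleus. The genes described here are ACTR6, which encodes Arp6, and 7 further Arp genes: ACTL6A, ACTR5, ACTR8, ACTR2, ACTR3, ACTR1A and ACTR10. They were taken as all probe sets of the array whose only gene symbol in the platform annotation is 1 of these 8, which gave 20 probe sets of 38439 other than controls. Of the 20, 16 passed the filter on dim probe sets, and each of the 8 genes kept at least 1 and so was among the 8026 genes tested.

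The samples were DT40 cells, a line from a chicken bursal lymphoma of B cells, made into a conditional knockout of Arp6. In these cells exons 6 to 11 of the ARP6 gene had been replaced by histidinol or puromycin resistance cassettes driven by a beta-actin promoter, and Arp6 came from a transgene that tetracycline shuts off. A single array came from cells without tetracycline (day 0), and 1 each from cells kept with 2 ug/ml of it for 2, 4 and 6 days. All 4 arrays therefore come from cells that carry the gene replacement and the transgene, and loss of Arp6, the drug itself and days of culture, by which each later array differs from day 0, cannot be told apart. The comparison asks whether the other Arp genes respond to the loss of Arp6.

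As background, Arps often act beside another Arp or beside actin itself. Arp2 and Arp3 (ACTR2, ACTR3) form the core of the Arp2/3 complex, which starts branched actin filaments. Arp1 (ACTR1A) builds the short filament of dynactin, the partner of the motor dynein, and Arp11 (ACTR10) sits at its pointed end. In the nucleus Arp5 (ACTR5) and Arp8 (ACTR8) belong to the INO80 chromatin remodeler, BAF53a (ACTL6A) is shared by INO80, SRCAP, NuA4 and the BAF (SWI/SNF) complexes, and Arp6 belongs to SRCAP, which exchanges H2A for its variant H2A.Z in nucleosomes.

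Signals below are intensities after each array was scaled to a common median, and ratios are log2 ratios to day 0. A probe set counts as above background where its signal exceeds the 95th percentile of the unspiked control probe sets of its array, which was 25.4, 24.9, 32.1 and 45.9 at days 0, 2, 4 and 6. With 1 array a day there is no replicate error and no test between days. The yardstick used here is how far the 2 brightest kept probe sets of a gene differed in their ratio. Over 3577 genes with at least 2 kept probe sets, their log2 ratios lay apart by a median of 0.31, 0.38 and 0.41 (days 2, 4 and 6). Where both probe sets had a mean signal of at least 100, as in 2032 genes, it was 0.23, 0.28 and 0.30. Both probe sets are read on the same arrays, so these differences leave out what differs between arrays or cultures. They are not the error of a ratio. In RNA from a whole culture, fewer expressing cells and less RNA per cell cannot be told apart.

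The cells were checked against markers. Of 16 B lineage genes listed, 13 were on the array, and 13 of 13 were above background at day 0 and 11 at day 6. Among these, 12 were tested, and 2, 4 and 7 were at least 2-fold lower at days 2, 4 and 6, with 0 at least 2-fold higher. Over all tested genes 2.97%, 5.12% and 8.35% were lower and 2.42%, 5.77% and 8.48% higher. The summed scaled signal of the 13 ran from 24444 to 29560 over the 4 arrays. Most of it came from IGLL1, JCHAIN and IRF4, at 12828, 4643 and 4302 at day 6. By gene, the median ratio of the 12 tested was -0.68, -0.78 and -1.97 at days 2, 4 and 6. Of 8 T cell genes on the array, CD3E, CD4, CD28, LCK and TRAT1 were below background on all 4 arrays. CD3D was above it on all 4, at 2382, 2020, 1238 and 911. ZAP70 was above it on 3 arrays and CD8A on 2, at no more than 78.0 and 49.4. The summed signal of 5 macrophage and granulocyte genes was 570, 421, 335 and 202 at days 0, 2, 4 and 6. Of these, CTSS read 421 at day 0 and 29.0 at day 6, below background there, while CSF1R read 56.5 and 123. The sum of 2 erythroid genes ran from 58.8 to 114. That of 10 fibroblast and endothelial genes was 230, 276, 568 and 1428, of which LUM gave 1069 at day 6. The ratio of 3' to 5' signal, a measure of RNA integrity, ran from 1.65 to 2.22 for beta-actin, with the highest at day 6, from 1.37 to 1.47 for EF1A and from 0.872 to 0.937 for GAPDH. The part of these shifts in the values below was not tested.

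ACTR6 was high at day 0 and far lower on every later array. By its brighter probe set (by mean over the arrays) it read 8148, 331, 325 and 322 as deposited at days 0, 2, 4 and 6, or 7002, 318, 331 and 383 after scaling. The later 3 arrays lay close together and well below day 0, with log2 ratios of -4.46, -4.40 and -4.19, and the signal stayed above background. As deposited, the second went from 8247 to 4.49, 29.1 and 7.06, all 3 below background, so that only bounds can be given, at least 285-fold, 220-fold and 154-fold lower. Both probe sets thus place day 0 above the 3 later days, which had no consistent order between them. They differ in the level that remained after day 0, above background on all 3 arrays by the first and on none by the second. The first is of a type (suffix s_at) whose probes can match more than 1 transcript, and the second is of the type meant to match only 1. Where either lies relative to the replaced exons or the transgene is unknown here. All 4 arrays carry the gene replacement, day 0 included, so a difference from day 0 does not check that replacement. At day 2 the ratio of ACTR6 was the lowest of all 8026 genes, as 0.0125% of them had a ratio at or below it. The same held at day 4, and at day 6 the share was 0.0498%, so that it was not the lowest there.

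**Figure D1:**
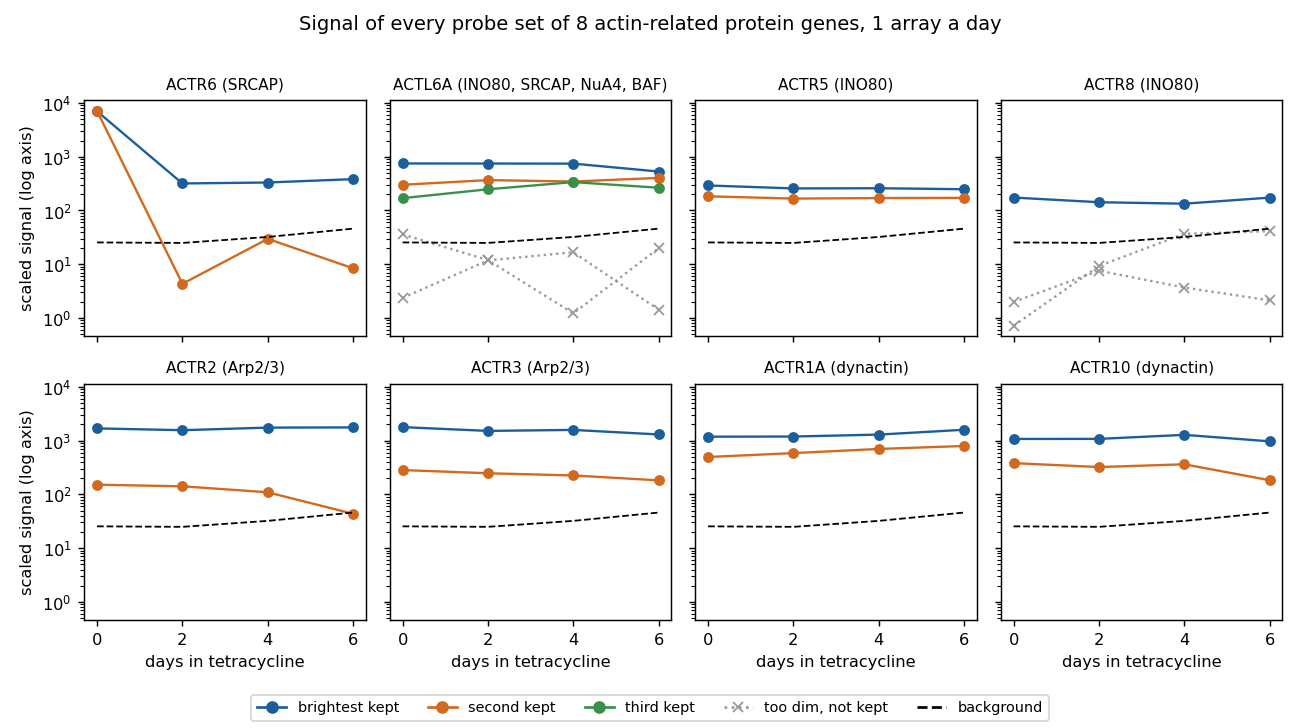
Scaled signal (log axis) of all 20 probe sets of the 8 Arp genes on the arrays of days 0, 2, 4 and 6, with the background of each array as a dashed line. ACTR6 drops after day 0, from 7002 to between 318 and 383 by its brighter probe set and to below background by its second, while the brightest probe set of each other gene stays within a 1.41-fold range.

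Outside ACTR6, no Arp gene reached a 2-fold difference on any later day. By the brightest probe set of each gene, 0 of 7 were 2-fold lower and 0 of 7 were 2-fold higher at days 2, 4 and 6. For ACTL6A, ACTR5, ACTR8 and ACTR10 that probe set is of the s_at type, whose probes can match more than 1 transcript. Over all tested genes the share at least 2-fold lower was 2.97%, 5.12% and 8.35% at these days, and the share 2-fold higher 2.42%, 5.77% and 8.48%, so 0 of 7 is near what those shares would give. With ACTR6 included, 1 of 8 was lower and 0 of 8 higher on each day. The median ratio of the 7 genes was -0.11, -0.01 and -0.15, against -0.01, 0.0033 and -0.0091 for all tested genes. Their median absolute ratio was 0.11, 0.17 and 0.23, against 0.22, 0.33 and 0.40 for all tested genes. The tested genes reach down to a mean signal near 29.1, dimmer than any of these 7, so the comparison is not matched for brightness. With a stricter filter, at the 75th percentile, 56 and 21 of 5429 genes were 2-fold higher and lower at day 2. At day 6 they were 277 and 278.

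How the arrays are scaled sets the sign of such small ratios. In the deposited values as they stand the median gene stood at -0.17, -0.24 and -0.48 on the 3 later days, and with scaling to the spike-in controls it was -0.10, 0.37 and 0.21. Under both, as under quantile and 75th percentile scaling, 0 of the 7 genes differed 2-fold on any day. The ratios given are thus read relative to the median gene.

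**Figure D2:**
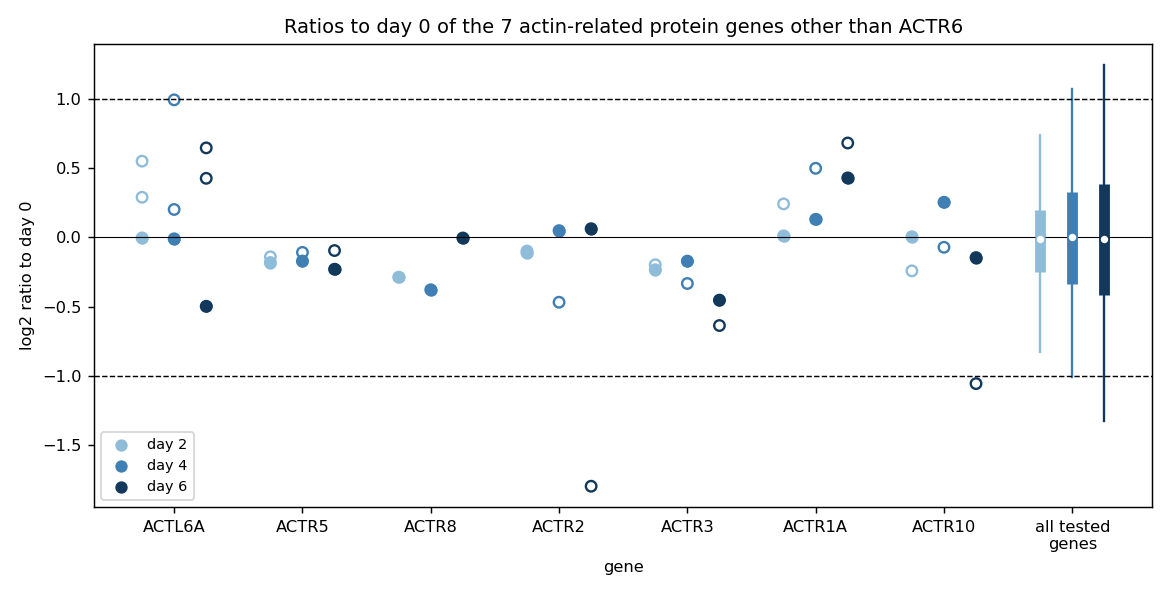
Log2 ratio to day 0 at days 2, 4 and 6 for the 7 Arp genes other than ACTR6. Filled points are the brightest probe set and open points the other kept probe sets, and the bars at the right give the 25th to 75th percentile (thick) and the 5th to 95th (thin) of all tested genes, with dashed lines at 2-fold. All filled points lie between -0.50 and 0.43, and the open points of ACTR2 and ACTR10 at day 6 lie below the lower line.

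Among the nuclear Arps, ACTL6A, which encodes BAF53a, gave different answers by different probe sets. Its brightest read 749, 747, 744 and 531 at days 0, 2, 4 and 6, so the first 3 arrays were level and day 6 stood lower, at a ratio of -0.50. The second read 301, 367, 346 and 404, with the highest signal at day 6 and ratios of 0.29, 0.20 and 0.43. The third read 169, 248, 337 and 265, highest at day 4, with ratios of 0.55, 0.99 and 0.65. At day 6 the 3 probe sets spanned 1.14 on the log2 scale, more than any of them differed from day 0, so the sign of the day 6 ratio is not settled. The mean of the 3 gave 0.28, 0.39 and 0.19. A further pair of probe sets of ACTL6A was too dim to keep, and between them they exceeded background on 1 array, at day 0 with a signal of 36.0.

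ACTR5, which encodes Arp5, an INO80 subunit, was the steadiest of the nuclear Arps over its probe sets. The brighter read 292, 257, 259 and 249, with day 0 the highest and the 3 later days close together. Its ratios were -0.18, -0.17 and -0.23, and those of the second probe set -0.14, -0.11 and -0.10. Each of these 6 ratios is smaller than the median difference between bright probe sets of a gene on its day. The day 4 ratio of the brighter turned to 0.19 with spike-in scaling. With the filter on dim probe sets left out, days 4 and 6 stood at -0.45 and -0.55.

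Arp8 also belongs to INO80, and its gene ACTR8 had 1 kept probe set, which read 174, 142, 134 and 173. Days 2 and 4 were lower than days 0 and 6, at ratios of -0.29 and -0.38, and day 6 was level with day 0 at -0.0049. These ratios at days 2 and 4 exceed the median difference between bright probe sets. Of the tested genes, dim ones included, 40.9% and 45.1% had an absolute ratio at least as large on these days. With spike-in scaling the ratios were -0.38, -0.02 and 0.22, so the day 4 value depends on the scaling. Of its 2 dim probe sets, 1 was below background on all 4 arrays. The other, of a type (suffix x_at) whose probes can match unrelated transcripts, read 0.717, 9.27, 36.8 and 41.2, above background at day 4 alone and there at least 1.45-fold higher than at day 0.

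Of the cytoplasmic Arps, ACTR2 and ACTR3 encode the paired Arps of the Arp2/3 complex. The brighter probe set of ACTR2 read 1689, 1563, 1746 and 1764, a 1.13-fold range, with ratios of -0.11, 0.05 and 0.06. With the filter on dim probe sets left out, the signs turned, to 0.01, -0.23 and -0.26. That rescaling shifted the brightest probe set of every Arp gene alike, and put ACTR1A at -0.15 at day 4. The second read 151, 141, 109 and 43.6, lower at each later day, with ratios of -0.10, -0.47 and -1.80. At day 6 that signal was below the background of 45.9, and as a bound it was at least 3.30-fold lower than at day 0. The probe sets of ACTR2 were therefore alike at day 2 and 1.86 apart at day 6, while the 90th percentile of such differences over the 3577 genes was 1.24. The background signal was highest on the day 6 array, and its part in this value was not tested.

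For ACTR3, which encodes Arp3, the probe sets pointed the same way at all 3 later days. The brighter read 1783, 1516, 1583 and 1302, with day 0 highest and day 6 lowest. The second read 283, 247, 225 and 182, in the same order at the ends. Their ratios were -0.23, -0.17 and -0.45 by the first and -0.20, -0.33 and -0.64 by the second. At day 6 both exceed the median difference between bright probe sets of 0.30. Of the tested genes, dim ones included, 45.7% had an absolute ratio at least as large as that of ACTR3 at day 6. Its size is thus common on this array, though not compared among genes of like brightness. With spike-in scaling the brighter probe set stood at -0.33 and -0.23 at days 2 and 6, and day 4 turned to 0.19. The day 6 value is then smaller than the 0.30. It was -0.92 without scaling and -0.78 with the filter on dim probe sets left out.

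ACTR1A, which encodes Arp1 of dynactin, stood higher on the later arrays by both of its probe sets. The brighter read 1183, 1192, 1295 and 1593, so that days 0 and 2 were level and day 6 was highest. The second read 496, 586, 701 and 795. Its ratios were 0.24, 0.50 and 0.68, against 0.01, 0.13 and 0.43 by the brighter. At day 6, 47.7% of tested genes, dim ones included, had an absolute ratio at least that of the brighter probe set. In the unscaled values the brighter gave -0.15, -0.12 and -0.04, below day 0 on all 3 later days. The median gene stood at -0.17, -0.24 and -0.48 there. Scaling shifts all genes of an array alike, so the place of ACTR1A above the median gene is the same with and without it. The unscaled values are therefore no separate check of that place.

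Arp11 is the other Arp of dynactin, and its gene ACTR10 differed between probe sets in how much lower it stood at day 6. By the brighter probe set the signals were 1075, 1078, 1281 and 971, with ratios of 0.0042, 0.25 and -0.15, and spike-in scaling put days 4 and 6 at 0.62 and 0.08. The second read 381, 323, 363 and 183, with ratios of -0.24, -0.07 and -1.06, the last 2.08-fold lower than day 0. From day 4 to day 6 the ratios moved by -0.40 and -0.98, the same way in both. The size of the day 6 difference rests on which probe set is read, and they were 0.91 apart. The brighter is of the s_at type, and the second of the type meant to match only 1 transcript.

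Counted by probe set, 0 of the 14 kept probe sets outside ACTR6 were 2-fold different at days 2 and 4, and 2 of 14 were 2-fold lower at day 6, those of ACTR2 and ACTR10 given above. Over all kept probe sets with 1 symbol, 3.32%, 5.57% and 8.18% were 2-fold lower and 3.47%, 7.22% and 10.2% 2-fold higher at the 3 later days. Of the 6 genes outside ACTR6 with several kept probe sets, the probe sets had the same sign in 4, 3 and 4 genes at days 2, 4 and 6. ACTR3, ACTR1A and ACTR5 did so on all 3 days. The share of such genes over the whole array was not computed, so these counts have no base rate beside them. They also hold for median scaling alone.

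A straight line over days was fitted to all 8026 genes with limma. It left 2 residual degrees of freedom, which measure departure from a line and not replicate error. No Arp gene passed an adjusted p of 0.05, and 0 of 8026 genes did (0%). At an unadjusted p under 0.05 there were 1480 genes, of which 0 were among the 8. ACTR6 had a slope of -0.63 ± 0.28 (SE) log2 units a day, with a limma adjusted p of 0.331, and its signal dropped once and then stayed level. Against log2(day + 1) in place of days, 0 Arp genes passed, and ACTR6 had a limma adjusted p of 0.303. Slopes of the other 7 ran from -0.075 ± 0.045 for ACTL6A to 0.070 ± 0.037 for ACTR1A, with limma adjusted p from 0.395 to 0.965. With a variance prior that follows the mean signal (limma-trend), 604 genes passed and ACTR6 was the 1 Arp gene among them, with an adjusted p of 0.0419.

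Closeness by the 3 ratios did not follow the complexes throughout. Among the 21 pairs of the 7 genes outside ACTR6, the INO80 Arps ACTR5 and ACTR8 were 0.32 apart (Euclidean distance on the log2 scale, rank 4), and ACTR5 was the nearest gene to ACTR8. ACTL6A, also of INO80, lay 0.36 from ACTR5 (rank 5) and 0.68 from ACTR8 (rank 16). ACTR2 and ACTR3 of Arp2/3 were 0.57 apart (rank 13), and ACTR1A and ACTR10 of dynactin 0.59 (rank 15). The nearest pair was ACTR3 and ACTR5 at 0.23, and the farthest ACTR3 and ACTR1A at 0.96. These distances carry no replicate error, and at day 6 alone the probe sets of ACTR2 lay farther apart than any of them.

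The other subunits of each complex were read from fixed lists, and their probe sets were chosen in the same way. For SRCAP, the complex of Arp6, the list held its other subunits and the genes of H2A.Z, H2AFZ and H2AFV, which it exchanges. Of its 9 genes 6 were tested, namely VPS72, YEATS4, DMAP1, RUVBL1, H2AFZ and H2AFV, and the SRCAP gene was not. Of the 6, 0 were 2-fold different on any day (1 was lower at day 6 without scaling). Their medians were 0.06, -0.04 and -0.15 at days 2, 4 and 6, which with spike-in scaling became -0.03, 0.32 and 0.07. VPS72 (YL1), which binds H2A.Z, stood at -0.30, -0.31 and -0.43, and DMAP1 at 0.65, 0.13 and 0.12. For INO80, 7 of 12 were tested with medians of 0.11, -0.01 and -0.03, whose signs turned under at least 1 other scaling on each day. At day 6, beside 8.48% of all tested genes, 1 of the 7 was 2-fold higher. This was NFRKB, which read 65.0, 85.3, 101 and 159, in rising order over the days, with a day 6 ratio of 1.29. It was short of 2-fold without scaling, and with quantile normalization and its higher floor. INO80D, another subunit, read 26.7, 44.8, 45.4 and 26.2, the last below background, with ratios of 0.75, 0.77 and -0.03.

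ACTL6A also sits in NuA4 and BAF. In NuA4, 13 of 17 other subunits were tested, with medians of -0.04, -0.21 and -0.16 (0.15 and 0.07 at days 4 and 6 with spike-in scaling). At day 6, beside 8.35% of all tested genes, 1 of the 13 was 2-fold lower, and 0 with spike-in scaling. Without scaling 1 and 3 were lower at days 4 and 6. The 1 at day 6 was MRGBP, at -0.07, -0.87 and -1.15, with -0.19, -0.91 and -1.06 by its second probe set. EPC1 stood at 0.77, 0.51 and 0.51. In BAF, 16 of 23 were tested, with 0, 2 and 1 at least 2-fold lower at days 2, 4 and 6 and 0 higher, beside the 2.97%, 5.12% and 8.35% lower among all tested genes. Spike-in scaling ended the 2 calls of day 4 and gave 1 gene higher there, and without scaling 3 and 5 were lower at days 4 and 6. The BAF median was -0.12, -0.49 and -0.32, below 0 on all 3 days under each of the 5 scalings. All but quantile normalization shift every gene of an array alike, so they are no separate check of its place against the median gene. Of its 16 genes 13, 14 and 14 were below day 0, as were 4132, 3982 and 4073 of all 8026. With spike-in scaling 14, 9 and 9 of the 16 were below, and with quantile normalization and its higher floor 10, 11 and 10. SMARCA4 (BRG1), an ATPase of the complex, read 414, 283, 192 and 233, with ratios of -0.55, -1.11 and -0.83. BRD7 stood at -0.08, -1.09 and -0.86. ARID2 read 49.9, 35.8, 42.8 and 9.70, the last below background. At day 6 it was at least 1.09-fold lower, so its 2-fold count rests on a signal below background.

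**Figure D3:**
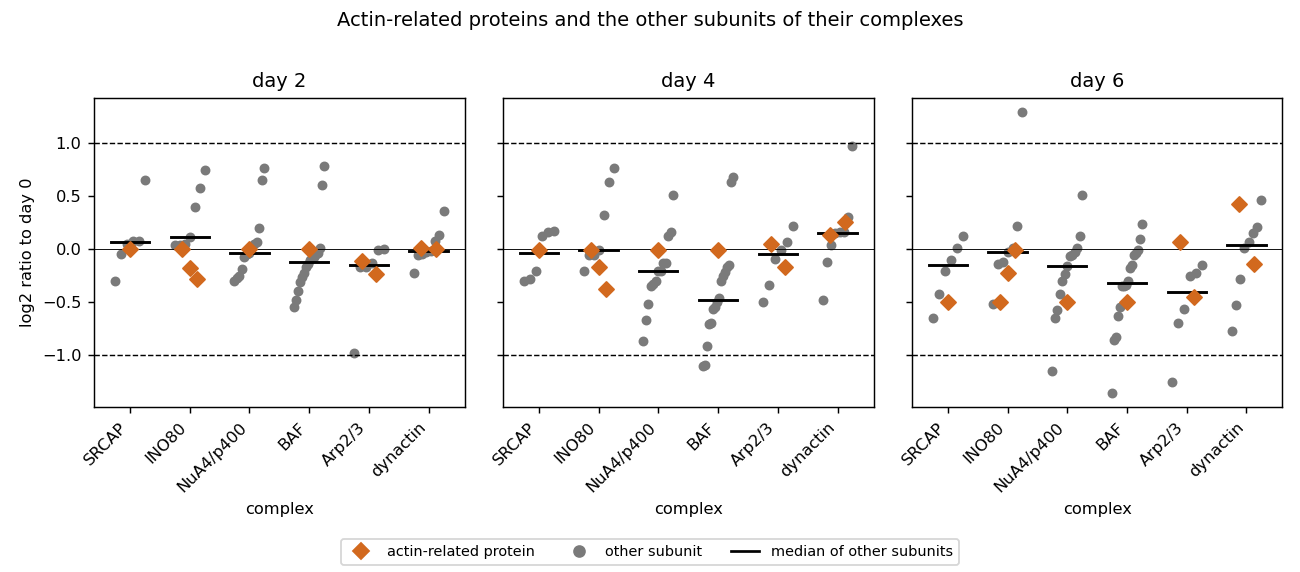
Log2 ratio to day 0 at days 2, 4 and 6 of the Arps (diamonds, brightest probe set, ACTR6 left out) and of the other tested subunits of 6 complexes (grey points, with the median as a bar), with dashed lines at 2-fold. ACTL6A appears in each of its 4 complexes, and the grey points of SRCAP include the H2A.Z genes H2AFZ and H2AFV. The grey points of BAF lie mostly below 0 on all 3 days, and those of Arp2/3 lie below 0 at day 6.

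For the Arp2/3 complex, 6 of 7 other subunits were tested, and 6, 4 and 6 of them were below day 0 (4132, 3982 and 4073 of all 8026 genes), with medians of -0.15, -0.05 and -0.41. With spike-in scaling 6, 1 and 5 were below. The day 6 median was below 0 under each of the 5 scalings (-0.19 with spike-in scaling), while spike-in scaling put the day 4 median at 0.31. As for BAF, scalings that shift every gene of an array alike are no separate check of its place against the median gene. At day 6, beside 8.35% of all tested genes, 1 of the 6 was 2-fold lower, and 3 without scaling. The 1 was ARPC1B, a subunit abundant in blood cells, which read 432, 218, 304 and 180, with ratios of -0.98, -0.51 and -1.26, and -0.52, -1.19 and -1.21 by its second probe set. ARPC3 stood at -0.17, -0.34 and -0.70. At day 6 ACTR3 lay near that median and ACTR2, by its brighter probe set, above it. Of 10 tested regulators of Arp2/3, medians -0.07, 0.15 and -0.04 with signs that turned at days 4 and 6 under other scalings, 1 was 2-fold higher and 1 was 2-fold lower at day 4, and 0 at days 2 and 6. Over all tested genes 5.77% were higher and 5.12% lower at day 4. Unscaled, 0 of the 10 regulators were higher on any day and 3 were lower at day 6. NCKAP1, a subunit of the WAVE regulatory complex that activates Arp2/3, read 235, 420, 541 and 426, higher on all 3 later arrays, with ratios of 0.84, 1.20 and 0.86 (0.81, 1.49 and 0.80 by its second probe set). HCLS1, a blood cell relative of cortactin, stood at -0.38, -1.50 and -0.75, whereas its other kept probe set gave 0.31, 0.31 and 0.52.

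For dynactin, 8 of 10 other subunits were tested, and 0 were 2-fold different on any day, though each other scaling gave 1 on a single day. Their medians were -0.02, 0.16 and 0.04, and the signs at days 4 and 6 turned without scaling. DCTN5, at the pointed end with Arp11, stood at 0.36, 0.98 and 0.47, whereas its other kept probe set gave -0.06, 0.40 and -0.57. CAPZA1, of the capping protein that closes the barbed end of dynactin and of actin filaments, stood at -0.23, -0.48 and -0.77 (-0.09, -0.17 and -0.67 by its second probe set).

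Actin itself and its other relatives formed a short list, since 9 of 17 listed genes were on the array and 4 were tested. ACTB (beta-actin), chosen after its values were seen, read 6755, 6170, 5406 and 4428, lower on each later array, with ratios of -0.13, -0.32 and -0.61. A second kept probe set of ACTB gave -0.74, -0.07 and 0.60, while 3 control probe sets for beta-actin, set at the 3' end, the middle and the 5' end of the transcript, gave -0.62, -0.83 and -0.73 at day 6. ACTR3B, a close relative of ACTR3 whose transcripts could be shared by some probes, read 924, 737, 702 and 560, with ratios of -0.33, -0.40 and -0.72. ACTRT2, an Arp of the testis in mammals, was dim at 51.6, 25.4, 55.5 and 17.4 and below background at day 6. Beside 2.97% and 8.35% of all tested genes, the list had 1 gene of 4 that was 2-fold lower at days 2 and 6. It was ACTRT2, whose day 6 bound is only 1.12-fold. The day 6 count thus rests on a signal below background. Quantile normalization, with its higher floor, gave 0 on both days, and without scaling 3 were lower at day 6. The median of the list was -0.23, -0.21 and -0.67, with day 4 at 0.15 under spike-in scaling.

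With clone-like and locus symbols left out, the 5 tested genes with ratios nearest those of ACTR6 were SPI1, GPR157, FAM110D, CD72 and HVCN1. They lay at Euclidean distances of 3.60, 3.61, 3.62, 3.98 and 4.00 over the 3 log2 ratios. None of them was close, as the distances show. ACTR6 had reached its lower level by day 2, and each of the 5 was lower at day 6 than at day 2. At day 4 FAM110D was nearly level with day 2 (-1.94 and -1.88), and the other genes were lower. GPR157 and HVCN1 were below background at day 6, and HVCN1 at day 4 too. The distances thus rest in part on signals below background. SPI1 (PU.1, a transcription factor of B and myeloid cells) read 438, 195, 56.7 and 24.2, the last below background. CD72, a B cell surface gene, read 776, 408, 123 and 64.3, above background throughout, with ratios of -0.93, -2.66 and -3.59. FAM110D had the lowest of their day 2 ratios, -1.88, and read 234, 63.8, 61.2 and 2.43, the last below background. Across all tested genes 33 (0.411%) were 2-fold lower at all 3 later days, and of the 8 Arp genes ACTR6 was the only one.

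**Figure D4:**
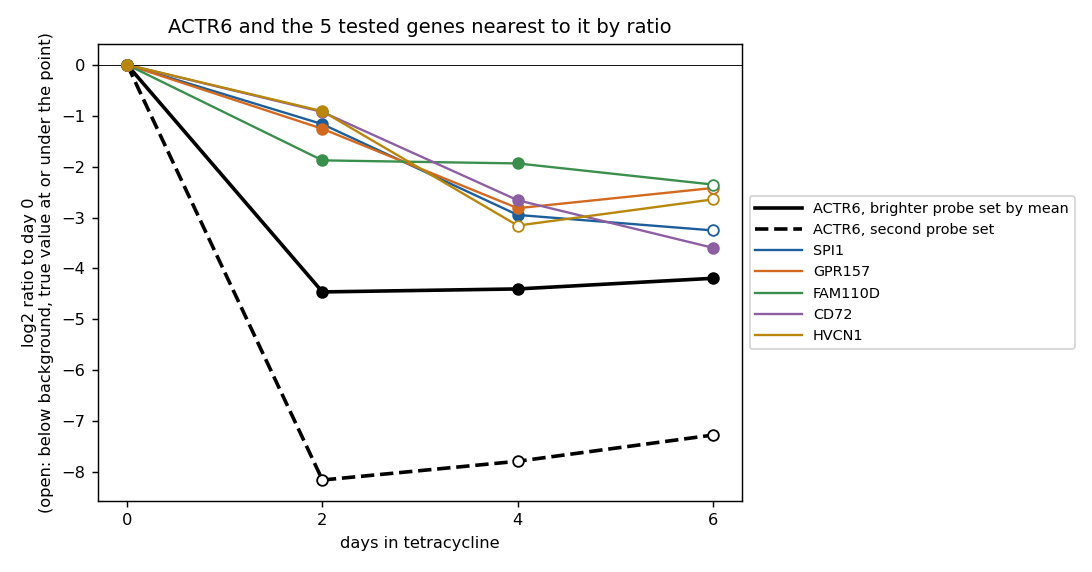
Log2 ratio to day 0 against days in tetracycline for both ACTR6 probe sets (black) and the 5 genes nearest to the brighter one (colours). Clone-like and locus symbols were left out of the search. Open points were below background and are drawn at their bound, so the true value lies at or under them. ACTR6 reaches -4.46 at day 2 by its brighter probe set, while the other 5 genes lie between -1.88 and -0.91 on that day.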

How the data were processed

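PolyA RNA of 4 cultures was read on Affymetrix chicken genome arrays, 1 per culture, per the labels' protocols. The authors deposited a linear intensity for each probe set, from GeneChip Operating Software 1.3 per the series' design text. How it computed signals, and whether it scaled them, is not given in the sources used, and the deposited medians (31.2, 25.6, 31.9 and 28.2 at days 0, 2, 4 and 6) share no target. Precision is limited by having 1 array a day.

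From 38535 probe sets 96 controls were removed, and of the others 16658 were kept, those with a mean log2 signal no lower than that of the overall median, 29.1. Arrays were scaled by 0.859, 0.962, 1.02 and 1.19 to a common median over these, and signals below the 40th percentile, 19.4, were raised to it. Symbols came from the platform annotation (27168 probe sets with 1 symbol, 177 with several, 11094 not listed), and list genes were also matched through current RefSeq symbols. A gene was read by its kept probe set with the highest mean. A 2-fold difference counted as higher or lower.

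Trends used limma 3.58.1 (lmFit, eBayes, 2-sided, Benjamini-Hochberg over all tested genes) in R 4.3.3, tested on simulated data. Other steps used Python 3.11.15, numpy 2.4.6, pandas 2.3.3 and matplotlib 3.10.9. The members, lists and tests were chosen with earlier results of these data known. Named were every member and its probe sets, from each list the genes 2-fold different on any day (at most 6) and the 2 with the largest absolute mean ratio, and the 5 genes nearest to ACTR6. Clone-like and locus symbols were left out of the nearest genes. The marker lists, and the bound at background, serve as checks. A ninth list, of actin monomer binding and folding genes, is given among the other observations.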

Additional observations from a re-analysis of the deposited data

How the results depend on the processing

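No paired analysis was possible because each day has 1 array. The counts of Arp genes 2-fold from day 0 were the same under the other scalings, filters, floors and 3-fold and 1.5-fold thresholds, under averaging of a gene's kept probe sets, and under the bound at background, which was chosen after seeing the data. Leaving out the floor, raising it and the bound could not change these ratios. The brightest probe set of each Arp gene lay above those levels on all 4 arrays. Those settings are therefore no check of the counts. With every probe set counted by itself, 2, 2 and 4 were 2-fold lower at days 2, 4 and 6 against 1 gene in each case, and outside ACTR6 2 at day 6 against 0. For the trend, limma-trend moved the number of Arp genes past the threshold from 0 to 1 and of all genes from 0 to 604, and spike-in scaling and the stricter filter called 72 and 146 genes. Leaving out each day in turn called 0 genes. Of 264 ratios recomputed, 15 moved by more than the probe set spread (8 of them unscaled at day 6, 7 with the mean of probe sets). In 21 of the 264 the sign turned. Of the 231 outside ACTR6, 0 reached 2-fold, and their range was -0.97 to 0.65. Both totals include the settings that could not change a ratio. The mean of the ACTR6 probe sets gave -6.49, -6.15 and -6.35. Over all tested genes the number higher and lower at day 6 was 681 and 670, against 263 and 1603 unscaled, 985 and 471 with spike-in scaling, and 224 and 289 with quantile normalization. At day 2 it was 194 and 238, against 147 and 403, 152 and 298, and 29 and 22, and at day 4 463 and 411, against 286 and 740, 1016 and 198, and 106 and 124. The quantile counts also carry the higher floor of that setting, so normalization and floor cannot be told apart in them. The cause of the other differences was not tested. Signal over background limits the dim probe sets of ACTR2, ACTR8 and ACTL6A.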

Other observations

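Genes that hold actin monomers or fold actin were read from a further list, of which 16 of 20 were tested. The median ratio was 0.06, 0.07 and 0.07 at days 2, 4 and 6, against -0.01, 0.0033 and -0.0091 for all tested genes, and its sign turned under other scalings. At least 2-fold lower were 0, 1 and 2 of the 16 genes at days 2, 4 and 6, and 0 were 2-fold higher. Over all tested genes 2.97%, 5.12% and 8.35% were lower and 2.42%, 5.77% and 8.48% higher. The counts are near what those shares would give. TWF2 (twinfilin-2, which binds actin monomers and filament ends) read 490, 325, 261 and 107 at days 0, 2, 4 and 6, lower on each later array, with ratios of -0.59, -0.91 and -2.20 (-0.22, -0.54 and -1.05 by its second probe set). CCT3, a subunit of the chaperonin that folds actin and tubulin, read 900, 450, 336 and 289, with ratios of -1.42 and -1.64 at days 4 and 6 and a day 2 level just short of 2-fold lower. The other 7 tested chaperonin subunits, CCT2, CCT4, CCT5, CCT6A, CCT7, CCT8 and TCP1, had day 6 ratios between -0.13 and 0.19. They were singled out after their values were seen, and CCT3 had 1 kept probe set.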
